A study of Mus musculus with 8 samples.

Results

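Crypts from mice labelled VEMD6 were compared with crypts from mice labelled VEMD4, across all genes of the deposited expression table. These are 2 of the 8 samples of the series, and 2 of its 6 crypt samples, with 1 library each. Both came from C57BL/6 mice aged 8 weeks with the genotype setdb1 iIEC-KO, an induced knockout of Setdb1 in the intestinal epithelium. The knockout was driven by Villin-CreERT2, a tamoxifen-activated Cre recombinase made in intestinal epithelial cells, so crypt cells outside the epithelium keep the gene. Every crypt mouse, the WT mouse of genotype setdb1fl/fl included, was given 1 dose of tamoxifen by gavage at 800 mg/kg. The sample labels do not spell out what the VEMD numbers stand for or how many mice a library holds, and the numbers are used here as names of libraries. The other crypt libraries, WT, VEMD2, VEMD3 and VEMD8, set the filter on low expression and serve as a frame for the levels. Of 16958 genes with a value, 10862 had a mean of at least 1 FPKM over the 6 crypt libraries and were compared. FPKM is a read count scaled to transcript length and library size. With 1 library per group there is no replicate spread, so no difference below carries an error or a test, and differences are described by their size alone.

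SETDB1 is a histone methyltransferase that places the repressive mark H3K9me3, and it keeps endogenous retroviruses and some genes silent. The crypt is the proliferative pocket of the intestinal lining: stem cells at its base renew the epithelium, Paneth cells beside them secrete antimicrobial peptides, and daughter cells become absorptive enterocytes or secretory goblet, enteroendocrine and tuft cells as they leave it. After injury or loss of stem cells the crypt epithelium can switch on p53 targets, interferon-stimulated genes and genes otherwise seen in the fetal gut.

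The targeted gene, Setdb1 (chr3:95323525-95357202, GRCm38.p6), was at 5.49 FPKM in VEMD4 and 3.53 in VEMD6, next to 9.42 (WT), 6.64 (VEMD2), 7.03 (VEMD3) and 4.95 (VEMD8). Both compared libraries were below WT and VEMD6 was the lowest of the 6, as it was for 47.2% of all genes. The gap between VEMD6 and VEMD4 was under 2-fold (log2 ratio -0.52, and -0.24 relative to the median gene). The value sums reads over the whole gene, and reads outside the deleted part still count towards it. Epithelial markers were abundant in both libraries, with a summed level of 18 broad epithelium genes of 8939.6 FPKM in VEMD4 and 8747 in VEMD6. Epcam, an epithelial adhesion molecule, stood at 904 and 887 FPKM. Crypt markers were present as well: Olfm4, a secreted stem cell marker, had 129 FPKM in VEMD4 and 154 in VEMD6, against 574 in WT. Both libraries also held villus-type RNA, such as Apoa4, an apolipoprotein of chylomicrons, at 2571 and 4304 FPKM. Y-linked genes were expressed in both libraries, and none was 2-fold apart.

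The ratio used throughout is log2((VEMD6 + 1)/(VEMD4 + 1)) of FPKM, so a value of 1 is a doubling and a value of -1 a halving, and adding 1 understates the difference of genes with low levels. By this measure 529 genes were at least 2-fold higher in VEMD6 (4.87% of those compared) and 1045 were at least 2-fold lower (9.62%). A further 9288 genes (85.5%) lay within 2-fold. At 4-fold there were 93 higher and 150 lower genes, and at 8-fold 28 and 41. Near the 2-fold limit, 89 genes lay just above it and 89 just below it on the higher side, with ratios of size 1 to 1.1 and 0.9 to 1, and on the lower side 255 and 346.

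The median gene had a log2 ratio of -0.28, a level 1.21-fold greater in VEMD4 than in VEMD6. When this shift was taken out, 858 genes were 2-fold higher (7.9%) and 524 were 2-fold lower (4.82%), so the balance between the directions depends on the scaling. For this reason counts of gene groups are given below as deposited, with the higher and lower counts after this rescaling beside them. Across genes, the log2 levels of VEMD4 were closest to those of VEMD3 (Pearson r 0.976, 340 genes 2-fold apart), and those of VEMD6 to those of VEMD8 (r 0.970, 398 genes), while VEMD4 and VEMD6 had r 0.924 and 1574 genes 2-fold apart. These are correlations across genes, which are not independent replicates.

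**Figure D1:**
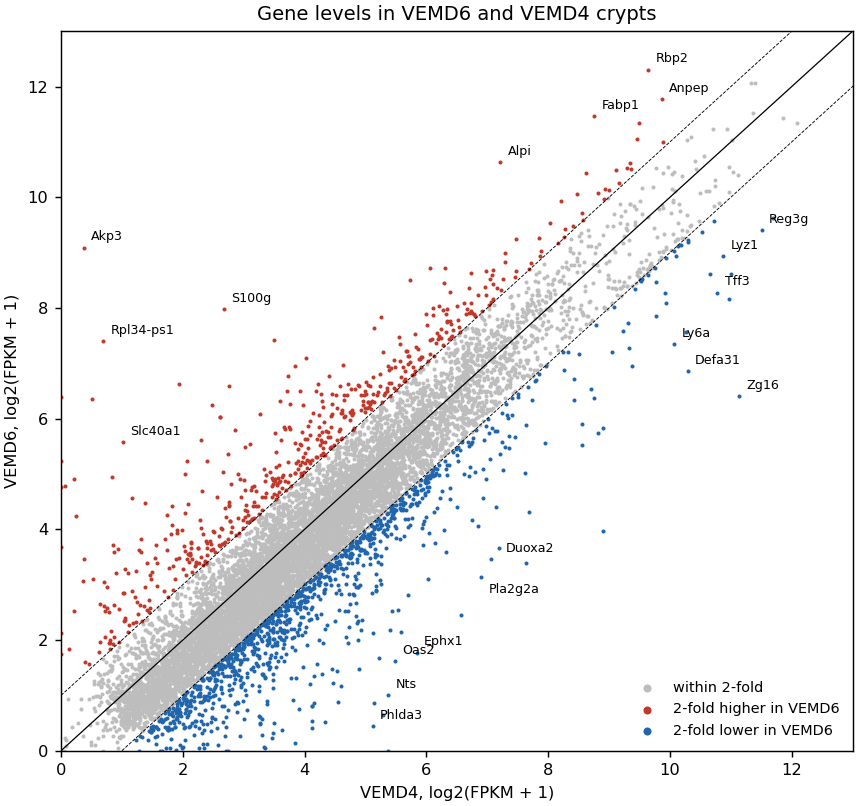
Level of each of the 10862 genes in VEMD4 (horizontal axis) and VEMD6 (vertical axis), both as log2(FPKM + 1); dashed lines mark the 2-fold limits. Alpi, Akp3, Rbp2 and Fabp1 lie far above the upper line, and Zg16, Phlda3, Ephx1 and Oas2 far below the lower one.

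Many genes of the absorptive enterocyte were higher in VEMD6. Of 21 tested brush border hydrolases, the digestive enzymes anchored on the apical membrane, 13 were 2-fold higher in VEMD6 and 1 was 2-fold lower, with a median log2 ratio of 1.2 (15 and 1 after rescaling). Alpi, intestinal alkaline phosphatase, had 148 FPKM in VEMD4 and 1585 in VEMD6, beside 213.9 (WT), 61.96 (VEMD2), 43.7 (VEMD3) and 925 (VEMD8), a log2 ratio of 3.41. VEMD6 and VEMD8 were thus above each of the other 4 libraries. Its duodenal relative Akp3 was at 0.30 FPKM in VEMD4, 0.59 in WT, 0.54 in VEMD2 and 0.11 in VEMD3, but at 544 in VEMD6 and 173 in VEMD8, the highest ratio of any gene named here (8.71). The Akp3 and Alpi transcripts are 81.9% identical over 1584 bases, and the summed level of the pair was 148 FPKM in VEMD4 and 2129 in VEMD6. Tmprss15, the enteropeptidase that activates pancreatic trypsinogen, had 0.78 and 29.7 FPKM. Mme (neprilysin, a peptidase), Treh (trehalase) and Asah2 (neutral ceramidase) had ratios of 2.41, 2.38 and 2.22. In VEMD6, Treh (24.87 FPKM) and Asah2 (52.35) were still below their WT levels of 58.93 and 64.52. VEMD6 was the highest of the 6 libraries for 11 of the 21 hydrolases, compared with 13.9% of all genes. The lower member was Enpp7, the alkaline sphingomyelinase, with 20.7 and 6.94 FPKM.

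Transporters and structural genes of the enterocyte followed the same direction, with 13 of 23 tested genes 2-fold higher and 1 lower (median 1.15, and 15 and 1 after rescaling). Slc2a2, the basolateral glucose transporter GLUT2, had 13.3 FPKM in VEMD4 and 123 in VEMD6, against 19.8 (WT), 28.4 (VEMD2), 8.67 (VEMD3) and 49.96 (VEMD8). Slc2a5, the fructose transporter, had 5.71 FPKM in VEMD4 and 40.3 in VEMD6, and Slc5a1, the sodium-glucose cotransporter, 155 and 510. Vil1, the microvillus actin bundler villin whose promoter drives the Cre, had 489.6 and 1139.6 FPKM. VEMD6 was the highest of the 6 libraries for 20 of the 23 genes, compared with 13.9% of all genes. The exception in direction was Nt5e, the ecto-5'-nucleotidase CD73, at 24.5 FPKM in VEMD4 and 3.17 in VEMD6. Genes of the villus tip and upper villus, the oldest part of the enterocyte's path, went both ways, with 3 of 17 tested genes higher and 4 lower (5 and 4 after rescaling) and a median of 0.12. Krt20, a keratin of mature enterocytes, had 657 FPKM in VEMD4 and 1458 in VEMD6, whereas Slc28a2, a nucleoside transporter, had 148 and 40.3.

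Fat absorption showed no 2-fold lower gene among 22 tested and 13 higher ones (median 1.13, and 15 higher and 0 lower after rescaling). The largest absolute difference in the whole comparison was that of Rbp2, the cytosolic retinol carrier of enterocytes, which had 799.7 FPKM in VEMD4 and 5062 in VEMD6, compared with 1856 (WT), 817 (VEMD2), 407 (VEMD3) and 2559 (VEMD8). Fabp1 and Fabp2, fatty acid binding proteins, had 433 and 2825 FPKM (Fabp1) and 721 and 2595 FPKM (Fabp2) in VEMD4 and VEMD6. Slc27a4, a fatty acid transporter, had a ratio of 2.42, Mogat2, which rebuilds diacylglycerol, 1.89, Mttp, which loads lipid onto apolipoprotein B, 1.80, and Dgat2, which completes triglyceride, 1.77. Of 24 PPAR targets and fatty acid oxidation genes, 7 were 2-fold higher and 1 lower (14 and 0 after rescaling), among them Pdk4, a brake on glucose oxidation, at 0.91 and 11.6 FPKM. Ppara itself, the receptor for fatty acids, had 1.80 FPKM in VEMD4 and 7.59 in VEMD6. Of 22 cholesterol synthesis genes 0 were 2-fold apart (3 higher and 0 lower after rescaling), with medians of 0.19 as deposited and 0.46 after rescaling. Of 74 nuclear-encoded oxidative phosphorylation genes 0 were 2-fold apart (2 and 0 after rescaling), but 73 ratios were above 0, and the medians were 0.36 and 0.63. VEMD4 had the lowest of the 6 levels for 63 of the 74, compared with 11.3% of all genes.

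Detoxifying enzymes differed by family. Of 21 tested cytochrome P450 oxidases and their reductase, 13 were 2-fold higher and none lower (median 1.2, and 13 and 0 after rescaling). Cyp1a1, a target of the aryl hydrocarbon receptor, had 5.80 FPKM in VEMD4 and 95.5 in VEMD6, next to 0.93 (WT), 1.19 (VEMD2), 11.3 (VEMD3) and 21.6 (VEMD8). Cyp2b10 and Cyp3a11, inducible drug-metabolizing enzymes, had 4.57 and 75.2 FPKM (Cyp2b10) and 1.61 and 21.4 FPKM (Cyp3a11). For Cyp3a11 the VEMD6 level was below the 34.03 FPKM of WT. The carboxylesterase Ces2a had 26.4 FPKM in WT, 5.11 in VEMD4 and 64.5 in VEMD6. Glutathione S-transferases and antioxidant genes were split, with 6 of 30 higher and 5 lower (8 and 3 after rescaling): Gstm3 had 23.6 and 125 FPKM, whereas Gpx2, a glutathione peroxidase of proliferating crypt cells, had 1613 and 391.

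**Figure D2:**
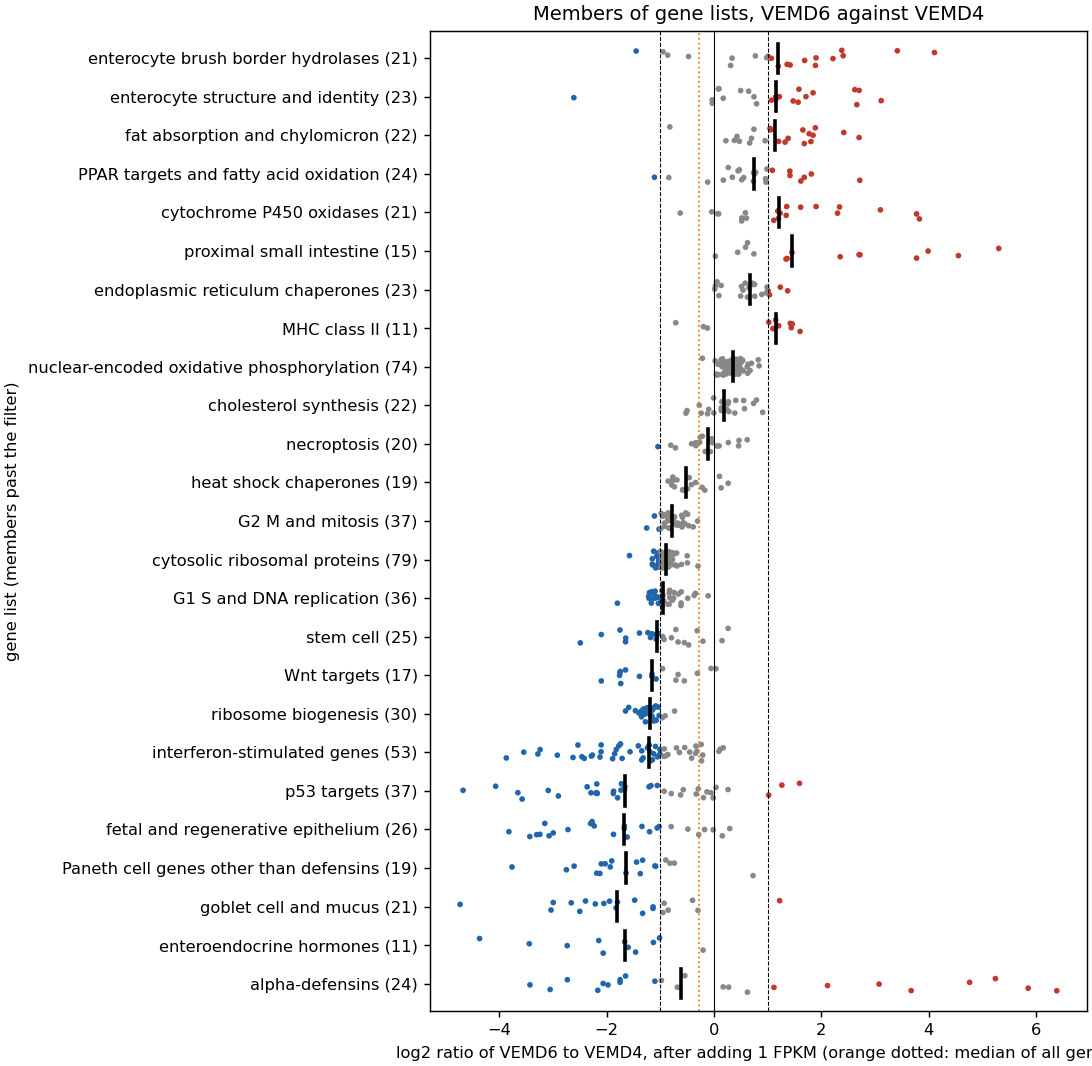
Each point is 1 gene of a list, placed by its log2 ratio of VEMD6 to VEMD4; black bars are list medians, red and blue points are 2-fold higher and lower, and the numbers of tested members stand in brackets. Medians run from 1.45 for the proximal small intestine list to -1.80 for goblet cell genes, with alpha-defensins spread to both sides.

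Genes that differ along the length of the gut also separated the libraries. Of 15 tested genes typical of the proximal small intestine, 10 were 2-fold higher in VEMD6 and 0 lower (median 1.45, and 11 and 0 after rescaling). Pdx1, a transcription factor of duodenum and pancreas, was between 0.19 and 0.32 FPKM in WT, VEMD2, VEMD3 and VEMD4, but 17.9 in VEMD6 and 16.7 in VEMD8. S100g, the intestinal calcium carrier calbindin-D9k, had 5.38 FPKM in VEMD4 and 251 in VEMD6, beside 18.8 (WT), 10.5 (VEMD2), 8.74 (VEMD3) and 7.67 (VEMD8). The S100g level in VEMD6 was therefore above all other libraries, VEMD8 included. Gata4, a transcription factor of duodenum and jejunum that is off in the distal ileum, was within 2-fold (39.1 and 59.3 FPKM).

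Genes of ileal bile acid handling were split, with 3 of 9 tested genes 2-fold higher and 2 lower (4 and 2 after rescaling). Fabp6, the ileal bile acid carrier, had 5.54 FPKM in VEMD4 and was listed at 0 in VEMD6, next to 2.27 (WT), 51.7 (VEMD2), 8.19 (VEMD3) and 0.38 (VEMD8). Slc10a2, the ileal bile acid importer, had 4.67 FPKM in VEMD4 and 1.12 in VEMD6, next to 0.65 in WT. In contrast, the basolateral bile acid exporters Slc51a and Slc51b were 2-fold higher, at 32.7 and 95.5 FPKM (Slc51a) and 72.4 and 173 FPKM (Slc51b). The hormones Pyy and Nts, made mostly by distal enteroendocrine cells, were at 5.66 FPKM in VEMD4 and listed at 0 in VEMD6 (Pyy), and at 40.5 and 1.01 FPKM (Nts). The labels give the source as intestines and do not name a segment, and the part of a difference in sampled segment in any result here was not tested.

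**Figure D3:**
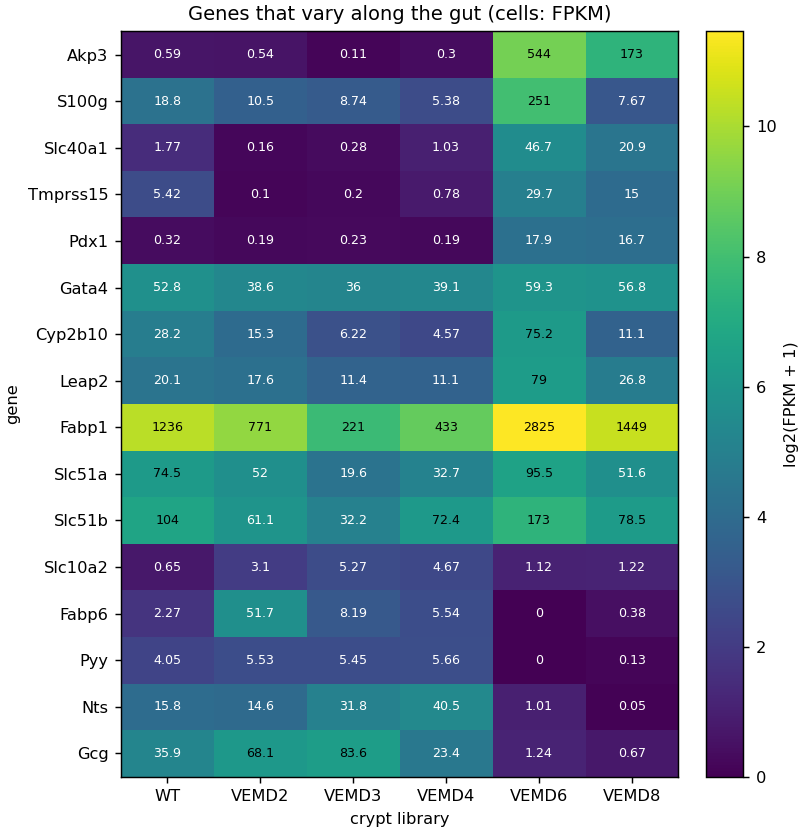
FPKM of 16 genes that vary along the gut in the 6 crypt libraries, with the color on a log2(FPKM + 1) scale and the value printed in each cell. Akp3, Slc40a1, Tmprss15 and Pdx1 are high in VEMD6 and VEMD8, and Fabp6, Pyy, Nts and Gcg are low in both.

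Of 17 tested genes for the handling of iron, calcium and manganese, 8 were 2-fold higher in VEMD6 and 0 were lower (8 and 0 after rescaling). Slc40a1, ferroportin, the only known cellular iron exporter, had 1.03 FPKM in VEMD4 and 46.7 in VEMD6, against 1.77 (WT), 0.16 (VEMD2), 0.28 (VEMD3) and 20.9 (VEMD8). Vdr, the vitamin D receptor, had 18.7 FPKM in VEMD4 and 73.2 in VEMD6, below the 88.3 of WT. Slc30a10, a manganese exporter, had 3.09 and 31.1 FPKM, and Slc46a1, the intestinal folate carrier, 20.8 and 67.2. Tfrc, the transferrin receptor, lay within 2-fold with a ratio of 0.07.

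Of 11 tested genes of MHC class II antigen presentation, 8 were 2-fold higher in VEMD6 and 0 lower (8 and 0 after rescaling), with a median of 1.15. Ciita, the master activator of these genes, had 3.33 FPKM in VEMD4 and 10.9 in VEMD6, compared with 14.5 (WT), 15.7 (VEMD2), 8.72 (VEMD3) and 3.70 (VEMD8). H2-Aa, an alpha chain, had 229 FPKM in VEMD4 and 615 in VEMD6, next to 787 (WT), 469.8 (VEMD2), 315 (VEMD3) and 146 (VEMD8). For both genes VEMD6 lay inside the range of the other libraries, VEMD4 and VEMD8 were the lowest pair, and VEMD8 was below VEMD3. The invariant chain Cd74 had 950 and 2033 FPKM. Of 24 class I and peptide processing genes 3 were 2-fold higher and 0 lower (3 and 0 after rescaling), led by the nonclassical molecule H2-T3 at 24.1 and 84.9 FPKM.

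Chaperones of the endoplasmic reticulum were all above their VEMD4 level, with 23 of 23 ratios above 0 and 4 of them 2-fold higher (9 and 0 lower after rescaling). Sdf2l1, a stress-induced chaperone partner, had 71.2 FPKM in VEMD4 and 186 in VEMD6, beside 61.2 (WT), 74.02 (VEMD2), 99.9 (VEMD3) and 256 (VEMD8). P4hb, protein disulfide isomerase and a partner of Mttp, had 629.7 and 1483 FPKM. Hspa5, the chaperone BiP, lay under the limit with 742 and 1143 FPKM. Of 23 genes of the integrated stress response 0 were 2-fold higher and 6 lower (1 and 4 after rescaling), such as Nupr1 at 22.7 and 4.80 FPKM.

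Targets of the transcription factor p53 made up a block of lower genes: 22 of 37 tested targets were 2-fold lower in VEMD6 and 3 were higher, with a median of -1.66 (3 higher and 19 lower after rescaling). Phlda3, an inhibitor of AKT signalling, had 33.8 FPKM in VEMD4 and 0.36 in VEMD6, against 0.27 (WT), 21.6 (VEMD2), 48.2 (VEMD3) and 0.12 (VEMD8). VEMD2, VEMD3 and VEMD4 were high and the other 3 libraries low, with no overlap. Ephx1, a microsomal epoxide hydrolase, had 56.4 FPKM in VEMD4 and 2.42 in VEMD6, compared with 4.70 (WT), 49.6 (VEMD2), 89.03 (VEMD3) and 1.35 (VEMD8). The same split of the libraries held for Psrc1, a microtubule regulator (22.3 FPKM in VEMD4 and 0.85 in VEMD6), and for Plk2, a polo-like kinase (16.4 and 0.46). Trp53inp1, a stress-induced p53 cofactor, had 22.2 and 1.73 FPKM, and the apoptosis effector Bax 152 and 32.9.

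Not every p53 target took part. Cdkn1a, the cell cycle inhibitor p21, had 295 FPKM in VEMD4 and 239.95 in VEMD6, next to 87.6 (WT), 201 (VEMD2), 311 (VEMD3) and 125 (VEMD8), so that VEMD6 stood close to VEMD4 and well above WT. Its log2 ratio was -0.30, next to the -0.28 of the median gene. Mdm2, the ubiquitin ligase that degrades p53, had 49.1 and 21.2 FPKM, a ratio of -1.17 that came to -0.90 after rescaling. The 3 higher members were the death receptor Fas (7.72 and 25.3 FPKM), the stress sensor Sesn1 (10.7 and 27.02) and the DNA damage gene Gadd45a (14.6 and 30.5), and in VEMD2, VEMD3 and VEMD4 all 3 were below their WT level.

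Promoters of the p53 targets held matches to the p53 half-site, the 10-base consensus bound by 1 p53 dimer, searched on both strands; this motif was chosen after the ratios were seen. A match was found in 14 of 47 promoters (29.8%) that RefSeq gives for 33 of these genes, and in 8.36% of all 32851 promoters of the same length (250 bases before to 50 after the start). Among targets 2-fold lower in VEMD6 it was 9 of 23 promoters (39.1%), and among the other targets 5 of 24 (20.8%). Some genes have several promoters, and counted by gene it was 8 of 18 and 5 of 15, a smaller gap. The promoter of Ccng1, cyclin G1, is shown because its match lies in a gene of this block with a high level, 121 FPKM in VEMD4 and 22.7 in VEMD6, beside 21.98 (WT), 116 (VEMD2), 174 (VEMD3) and 22.8 (VEMD8). It spans chr11:40755237-40755536 on the minus strand of GRCm38.p6 (RefSeq), is written 5′ to 3′, and carries the half-site in capitals 185 bases before the start.
Ccng1: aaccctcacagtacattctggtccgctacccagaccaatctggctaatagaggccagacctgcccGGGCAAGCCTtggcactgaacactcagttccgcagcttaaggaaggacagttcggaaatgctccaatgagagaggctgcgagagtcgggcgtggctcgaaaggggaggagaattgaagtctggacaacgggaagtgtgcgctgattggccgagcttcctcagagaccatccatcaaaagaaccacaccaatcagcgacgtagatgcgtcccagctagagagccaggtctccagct
A match of letters is a description and not evidence of binding.

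Interferon-stimulated genes formed another block. Of 53 tested genes 35 were 2-fold lower in VEMD6 and none was higher, with a median of -1.21 (25 lower and 0 higher after rescaling). VEMD4 had the highest level of all 6 crypt libraries for 49 of the 53, compared with 11.5% of all genes. Oas2, which makes the RNA-degrading signal 2-5A, had 43.8 FPKM in VEMD4 and 2.06 in VEMD6, against 1.35 (WT), 4.79 (VEMD2), 13.8 (VEMD3) and 8.60 (VEMD8). Mx1, an antiviral GTPase, had 36.4 FPKM in VEMD4 and 2.20 in VEMD6, with 1.58 (WT), 6.66 (VEMD2), 20.6 (VEMD3) and 2.15 (VEMD8). In both genes VEMD6 was near the WT level. Isg15, a ubiquitin-like modifier, had 72.04 FPKM in WT, 531 in VEMD4 and 146 in VEMD6, and Irf7, the factor that amplifies the interferon response, 41.8, 213 and 79.4. These 2 genes were above WT in VEMD6. The Mx1 and Mx2 transcripts are 94.7% identical over 924 bases and those of Ifit3 and Ifit3b 97.8% over 1700, so the values of single members of these pairs are uncertain. The same holds for Trim30a and Trim30d, 89.9% identical over 1721 bases: Trim30a alone had a ratio of -2.54 and Trim30d one of 3.39, and the sum of both, 29.5 FPKM in VEMD4 and 26.7 in VEMD6, had a ratio of -0.14.

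Other branches of nucleic acid and interferon signalling were less uniform. A list of GTPases and other genes induced by interferon gamma was split, with 3 of 20 tested genes higher and 3 lower (4 and 2 after rescaling). The GTPases Gbp4 and Igtp had 46.5 and 131 FPKM (Gbp4) and 103 and 239.9 (Igtp). Gbp3 had 13.5 and 1.49, and Ido1, which is no GTPase and degrades tryptophan, 62.7 and 17.7. The list's median was -0.06 and 0.22 after rescaling, so its sign depends on the scaling. Of 19 sensors of nucleic acids and their adaptors 8 were 2-fold lower and 0 higher (5 lower and 1 higher after rescaling), including the DNA sensors Cgas (3.88 and 0.83 FPKM) and Aim2 (7.37 and 2.79) and the adaptor Sting1 (14.04 and 3.62). Zbp1, a sensor of left-handed nucleic acids that can start necroptosis, had 133 FPKM in VEMD4 and 98.98 in VEMD6, next to 64.9 (WT), 56.8 (VEMD2), 74.3 (VEMD3) and 69.3 (VEMD8), a ratio of -0.42.

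Promoters of the interferon-stimulated genes carried the core of the interferon-stimulated response element, searched as GAAANNGAA on both strands, in 24 of 48 promoters (50%, from 39 of the 53 genes), against 8.56% of all 32851 promoters. It was found in 20 of 35 promoters (57.1%) of the members 2-fold lower in VEMD6 and in 4 of 13 (30.8%) of those within 2-fold. Over all genes it was found in 10.6% of promoters of 2-fold lower genes and 6.16% of those of 2-fold higher genes. The lower genes include the list members just given, and the share over promoters of all tested genes was 7.12%. The promoters of 3 lower members, with ratios of -2.92 (Ifit3), -3.24 (Slfn5) and -2.54 (Trim30a), are shown, with the matches in capitals; they read TTCNNTTTC where the match is on the other strand. Ifit3, an antiviral protein (42.3 FPKM in VEMD4 and 4.72 in VEMD6), has matches that begin 155, 121 and 102 bases before the start, in chr19:34583279-34583578 on the plus strand. Slfn5, a nuclear protein of the schlafen family (21.03 and 1.33 FPKM), has them 155 and 132 bases before the start, in chr11:82951852-82952151 on the plus strand. Trim30a, a protein of the TRIM family (28.3 and 4.05 FPKM, uncertain because of its copy Trim30d), has 1 at 35 bases before the start, in chr7:104465144-104465443 on the minus strand. All are written 5′ to 3′ from RefSeq on GRCm38.p6.
Ifit3: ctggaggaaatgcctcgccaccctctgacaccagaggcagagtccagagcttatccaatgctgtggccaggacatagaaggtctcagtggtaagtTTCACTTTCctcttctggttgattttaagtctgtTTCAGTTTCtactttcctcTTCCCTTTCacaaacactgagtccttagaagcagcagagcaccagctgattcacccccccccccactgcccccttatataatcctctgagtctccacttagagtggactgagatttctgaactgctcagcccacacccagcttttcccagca
Slfn5: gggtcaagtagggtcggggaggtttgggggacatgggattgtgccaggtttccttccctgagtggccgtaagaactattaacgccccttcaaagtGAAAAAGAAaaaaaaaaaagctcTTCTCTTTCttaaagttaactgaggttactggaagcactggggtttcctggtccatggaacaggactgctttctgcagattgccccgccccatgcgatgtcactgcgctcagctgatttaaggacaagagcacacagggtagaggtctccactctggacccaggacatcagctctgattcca
Trim30a: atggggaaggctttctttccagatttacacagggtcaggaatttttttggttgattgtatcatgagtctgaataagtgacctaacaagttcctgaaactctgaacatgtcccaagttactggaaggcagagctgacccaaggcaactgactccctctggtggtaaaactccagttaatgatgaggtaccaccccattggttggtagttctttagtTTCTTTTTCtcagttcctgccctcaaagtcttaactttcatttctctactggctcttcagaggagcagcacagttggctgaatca
Ifit3 and Slfn5 had their highest level of the 6 libraries in VEMD4, as did Trim30a.

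Genes of the fetal gut and of regenerating epithelium were lower as well: 19 of 26 tested genes were 2-fold lower in VEMD6 and 0 higher, with a median of -1.67 (16 lower and 0 higher after rescaling). VEMD4 had the highest level of 6 for 21 of the 26, compared with 11.5% of all genes. Ly6a, the surface protein Sca-1, had 1075 FPKM in VEMD4 and 162 in VEMD6, beside 37.3 (WT), 368 (VEMD2), 789.5 (VEMD3) and 275 (VEMD8). Anxa1, an annexin, had 19.2 FPKM in VEMD4 and 0.43 in VEMD6, with 0.09 (VEMD2), 2.94 (VEMD3) and 1.89 (VEMD8) elsewhere and a WT value listed at 0. Clu, clusterin, which marks revival stem cells, had 0.38 FPKM in WT, 77.2 in VEMD4 and 14.9 in VEMD6. Levels in VEMD6 were thus lower than in VEMD4 but not at the WT value for Ly6a and Clu. S100a6 had 450.3 and 52.6 FPKM, the keratin Krt23 47.1 and 3.45, and the interleukin 1 receptor antagonist Il1rn 10.1 and 0.17. Targets of the growth regulator YAP were lower in 6 of 15 cases with 0 higher (6 and 0 after rescaling), among them Ajuba (9.25 and 1.53 FPKM).

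A list of epithelial oxidases and other mucosal defence genes showed the same direction, with 9 of 15 genes 2-fold lower and none higher (8 and 0 after rescaling). Its lowest ratio, -4.73, was that of Zg16, a mucus lectin also counted among the Reg lectins and antimicrobial genes and the goblet cell genes below. Duox2, an epithelial oxidase that releases hydrogen peroxide, had 106 FPKM in VEMD4 and 16.9 in VEMD6, against 18.8 (WT), 27.6 (VEMD2), 38.7 (VEMD3) and 37.97 (VEMD8). Its maturation factor Duoxa2 had 145 FPKM in VEMD4 and 11.6 in VEMD6, and Nos2, inducible nitric oxide synthase, 28.1 and 9.67. VEMD4 was above all other libraries for Duox2 and Duoxa2. Of 15 Reg lectins and other antimicrobial genes 9 were 2-fold lower and 1 higher (8 and 2 after rescaling). Reg3g, a lectin against Gram-positive bacteria, had 2908 FPKM in VEMD4 and 677 in VEMD6, compared with 1571 (WT), 794 (VEMD2), 1007 (VEMD3) and 6988 (VEMD8), and Reg3b had 2051 and 389, with 1687 (WT), 525 (VEMD2), 434 (VEMD3) and 9734 (VEMD8). For both genes VEMD6 was the lowest library and VEMD8 the highest. The higher member was Pigr, which carries IgA across the epithelium, at 356 and 1069 FPKM.

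**Figure D4:**
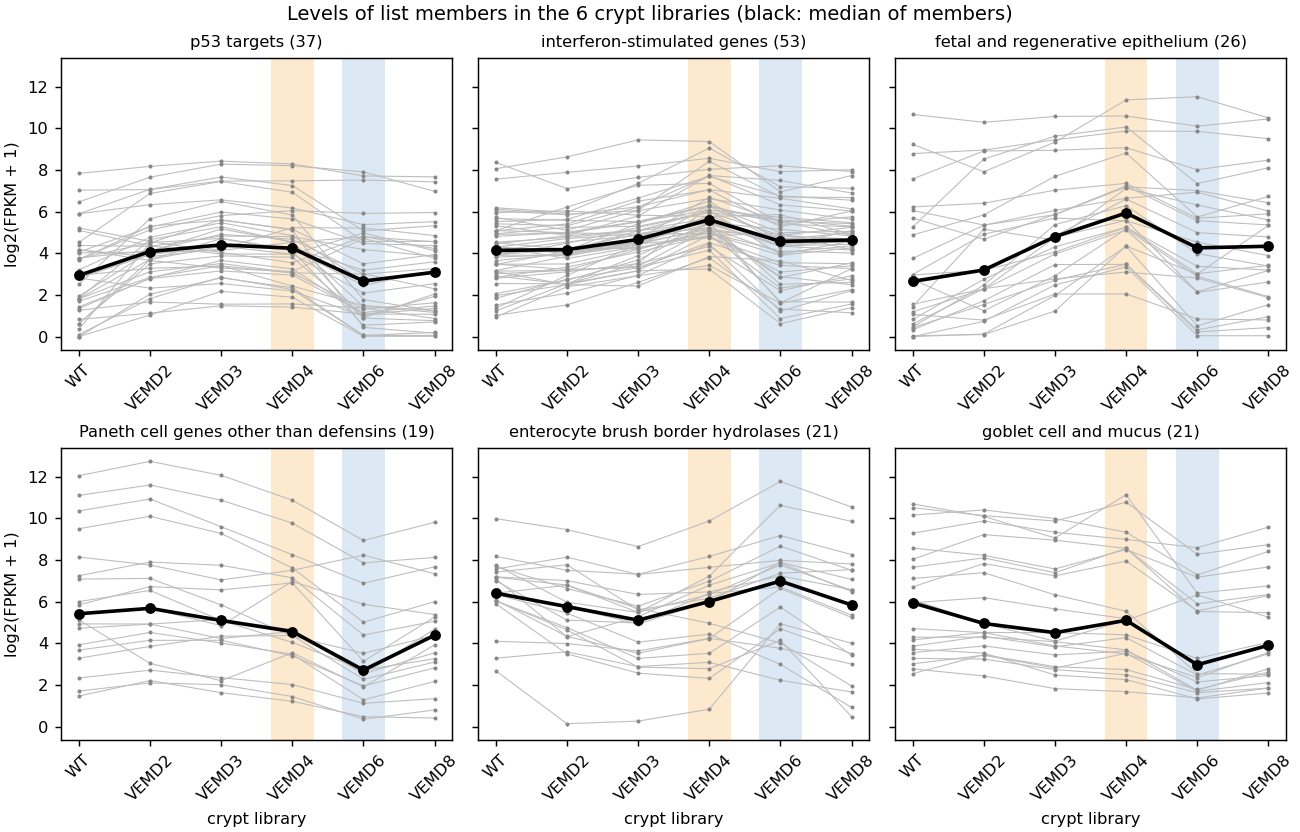
Levels of all tested members of 6 gene lists in each crypt library, as log2(FPKM + 1), with 1 grey line per gene and the median of the members in black; VEMD4 is shaded orange and VEMD6 blue. The median of p53 targets is low in WT, VEMD6 and VEMD8, that of interferon-stimulated and fetal genes peaks in VEMD4, and that of brush border hydrolases peaks in VEMD6.

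Many Paneth, goblet and enteroendocrine cell genes were lower in VEMD6. Of 19 tested Paneth cell genes other than defensins, 15 were 2-fold lower and none was higher (median -1.64, and 13 lower and 1 higher after rescaling). VEMD6 had the lowest of the 6 levels for 16 of the 19, compared with 47.2% of all genes. Lyz1, Paneth cell lysozyme, had 1875 FPKM in VEMD4 and 489.9 in VEMD6, next to 4233 (WT), 6844 (VEMD2), 4289 (VEMD3) and 896 (VEMD8). Pla2g2a, a secreted bactericidal phospholipase, had 56.5 FPKM in WT, 118 in VEMD4 and 7.79 in VEMD6, Ang4, an antimicrobial ribonuclease, 724, 196 and 31.3, and Mmp7, the protease that activates alpha-defensins in mice, 151, 141 and 20.1. Fewer Paneth cells and less of this RNA per cell cannot be told apart in these bulk libraries, and the same holds for each cell type below.

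Alpha-defensins, the antimicrobial peptides of Paneth granules, went both ways. Of 24 tested genes 10 were 2-fold lower and 8 were 2-fold higher (9 and 8 after rescaling), while the summed level of the family was 7939 FPKM in VEMD4 and 3053 in VEMD6, against 37062 in WT. The most abundant members were lower: Defa17 had 3321 FPKM in VEMD4 and 792 in VEMD6, beside 12801 (WT), 17679 (VEMD2), 8807 (VEMD3) and 1357 (VEMD8), and Defa31 had 1256 and 116, with 6478 (WT), 6594 (VEMD2), 3538 (VEMD3) and 440 (VEMD8). In contrast, Defa42 was at 0.42 FPKM in VEMD4 and 81.1 in VEMD6, with 3.07 (WT) and 2.92 (VEMD2), and was listed at 0 in VEMD8. Defa43, Defa2, Defa3 and Defa21 were listed at 0 in VEMD4 and had 82.6, 36.9, 26.1 and 11.8 FPKM in VEMD6. Genes of this family are close copies, for example 84.4% identity over 371 bases between Defa31 and Defa35, so reads may be shared among members and the values of single members are uncertain. When genes had to reach 1 FPKM in the 4 libraries outside the ratio, a filter added after the data were seen, 5 rather than 8 defensins were counted as higher.

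Goblet cell and mucus genes had the lowest median of the lists described here, -1.80, with 15 of 21 genes 2-fold lower and 1 higher (13 and 1 after rescaling). Zg16, a mucus lectin that binds Gram-positive bacteria, had 2249.6 FPKM in VEMD4 and 83.7 in VEMD6, against 1659 (WT), 1095 (VEMD2), 532 (VEMD3) and 107 (VEMD8). VEMD4 was the highest and VEMD6 the lowest of the 6 libraries. Muc2, the gel-forming mucin, had 246 and 45.97 FPKM in VEMD4 and VEMD6, Clca1, a mucus-processing protease, 377 and 45.1, and Tff3, the trefoil peptide, 1758 and 309. Spdef and Atoh1, transcription factors of the secretory lineage, had 18.4 and 4.56 FPKM (Spdef) and 11.3 and 3.42 FPKM (Atoh1). Agr2, a disulfide isomerase needed for mucin folding, was within 2-fold at 507 and 384.

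Enteroendocrine hormones were 2-fold lower in 10 of 11 cases (8 after rescaling) and higher in 0, with a median of -1.66. Gcg, the precursor of glucagon-like peptides, had 23.4 FPKM in VEMD4 and 1.24 in VEMD6, compared with 35.9 (WT), 68.1 (VEMD2), 83.6 (VEMD3) and 0.67 (VEMD8). Gip had 125 FPKM in VEMD4 and 29.2 in VEMD6, and Sst, somatostatin, 36.7 and 7.50. These proximal and distal hormones were both lower. The exception was Ghrl, ghrelin, at 10.0 and 8.55 FPKM. Factors and granins of the lineage followed with 6 of 12 lower (3 after rescaling), including Neurod1 at 2.01 and 0.31 FPKM. For tuft cells only 8 of 24 listed genes passed the filter, 2 of these were 2-fold lower as deposited and 0 after rescaling.

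Stem cell genes were lower in part. Of 25 tested genes 14 were 2-fold lower and none higher, but 6 after rescaling, with medians of -1.07 and -0.79. Igfbp4 had 25.4 FPKM in VEMD4 and 3.70 in VEMD6, next to 4.72 (WT), 18.4 (VEMD2), 29.5 (VEMD3) and 7.42 (VEMD8), and Sox9, a transcription factor of crypt progenitors, 19.7 and 3.83, with 8.74 (WT), 13.4 (VEMD2), 19.2 (VEMD3) and 7.58 (VEMD8). For both genes VEMD6 was lower than WT. Ascl2, a Wnt-driven stem cell factor, had 7.31 and 1.65 FPKM in VEMD4 and VEMD6. Lgr5, the stem cell receptor for R-spondin, was low everywhere, 2.10 FPKM in WT, 1.07 in VEMD4 and 0.41 in VEMD6, and Olfm4 did not follow. Among Wnt targets 10 of 17 were 2-fold lower (7 after rescaling), with Myc at 46.5 and 13.2 FPKM and the cyclin Ccnd1 at 103 and 30.1.

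Proliferation genes had smaller ratios. All 36 genes of the G1/S transition and DNA replication and all 37 of G2 and mitosis had ratios below 0, with VEMD6 the lowest of 6 libraries for each of them, where 47.2% of all genes had their lowest value. At 2-fold, 15 of the 36 and 3 of the 37 were lower, beside 9.62% of all genes, and after rescaling 1 and 0, beside 4.82%. Ccne2, a cyclin of S phase entry, had 13.9 and 3.28 FPKM, while Mki67, a general proliferation marker, had 35.8 and 25.2. Mki67 was thus close to the 37.5 of WT in VEMD4 and below it in VEMD6.

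Genes of the protein synthesis machinery were lower to unlike extents. Of 30 ribosome biogenesis genes 27 were 2-fold lower (12 after rescaling), with a median of -1.20. All 79 cytosolic ribosomal protein genes had a ratio below 0, and 16 of them were 2-fold lower (1 after rescaling), with a median of -0.90. Of all genes, 9.62% were 2-fold lower, and 4.82% after rescaling. Npm1, nucleophosmin, had 969 FPKM in VEMD4 and 308 in VEMD6, beside 544 (WT), 961 (VEMD2), 1130.3 (VEMD3) and 557 (VEMD8). The gene that was 2-fold lower after rescaling, Rpl34, had 633 and 212 FPKM, while its near copy Rpl34-ps1 had 0.62 and 168. The 2 sequences are 99.4% identical over 354 bases, the sum of both was 633 and 379.6 FPKM (log2 ratio -0.74), and the values of each alone are uncertain. The same applies to Hmga1 and Hmga1b, 99.8% identical over 1602 bases, with single ratios of -2.09 and 3.43 and a ratio of the sum of -1.26.

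Several groups with a bearing on cell stress or death had few genes 2-fold apart. Heat shock chaperones had 0 of 19 genes 2-fold apart (median -0.53, and -0.25 after rescaling). The median level of the 19 was 114 FPKM in VEMD4 and 71.3 in VEMD6, next to 71.5 in WT. Hspa1b, chosen after its values were seen, had 43.3 FPKM in VEMD4 and 33.9 in VEMD6. Its other levels were 3.69 (WT), 23.6 (VEMD2), 62.8 (VEMD3) and 56.9 (VEMD8). In VEMD6 Hspa1b was thus above WT, unlike the median of the list. Necroptosis genes had 1 of 20 apart, Tnf at 5.50 and 2.15 FPKM, and none after rescaling; Ripk3, the kinase of that pathway, had 46.97 and 45.98 and its substrate Mlkl 41.5 and 34.3. DNA repair genes had 3 of 30 lower, near the 9.62% of all genes, and 0 after rescaling. All 30 ratios were below 0, where the median gene had -0.28. VEMD6 had the lowest of the 6 levels for 28 of the 30, compared with 47.2% of all genes. Partners of SETDB1 and other H3K9 genes had 5 of 24 lower, beside 9.62% of all genes, and 0 after rescaling, with 21 ratios below 0 and VEMD6 the lowest library for 16, among them Trim28, the co-repressor that recruits SETDB1, at 59.4 and 28.6 FPKM and a rescaled ratio of -0.75.

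Other cell types were scarce in both libraries. Of 40 listed leukocyte genes 23 passed the filter, 7 of these were 2-fold lower in VEMD6 and 0 higher (4 and 0 after rescaling), and the summed level was 311 FPKM in VEMD4 and 159 in VEMD6, compared with 191 (WT), 165 (VEMD2), 206 (VEMD3) and 98.3 (VEMD8). The mucosal mast cell proteases Mcpt1 (41.1 and 3.56 FPKM) and Mcpt2 (20.8 and 1.79) led the list, whereas the T cell marker Cd3e had 4.39 and 2.23 and Ptprc, the pan-leukocyte marker CD45, 2.80 and 1.41. Among the leukocyte genes Cd79a, S100a8 and Mzb1 were listed at 0 in VEMD6. The leukocyte sum was highest in VEMD4, as were the interferon-stimulated and fetal genes, and its part in those results was not tested. Of 25 stroma and endothelium genes 4 passed the filter, the list's sum was 15.8 FPKM in VEMD4 and 17.2 in VEMD6, and 4 and 14 of its genes were listed at 0. Of 21 pancreas genes 4 passed, and the list's sum of 2276 and 97.5 FPKM was mostly Zg16 (2249.6 and 83.7 FPKM), which goblet cells also express.

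The libraries VEMD8 and VEMD3, of the same genotype and treatment, enter no ratio above and give a separate pair. By the same measure 420 genes were 2-fold higher in VEMD8 than in VEMD3 (3.87%) and 539 were 2-fold lower (4.96%), and the median gene had a ratio of -0.20. Of the 529 genes higher in VEMD6 than in VEMD4, 270 were also higher in VEMD8 (51.0% of the 529 and 64.3% of the 420) and 13 were lower. Of the 1045 lower genes, 364 were also lower in VEMD8 (34.8% of the 1045 and 67.5% of the 539) and 21 were higher. Across all genes the 2 ratios had a Pearson r of 0.70. VEMD8 and VEMD3 are other groups and not replicates of VEMD6 and VEMD4.

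The gene groups differed in how far the second pair matched. Median ratios were alike for p53 targets (-1.66 in VEMD6 to VEMD4 and -1.65 in VEMD8 to VEMD3), enterocyte structure (1.15 and 1.19) and fat absorption (1.13 and 1.03). Hormones had a lower median in the second pair (-3.65 beside -1.66), as did alpha-defensins (-2.53 beside -0.61). Interferon-stimulated genes had a median of -0.26 in the second pair, with 7 of 53 lower and 2 higher. Signs were opposite for MHC class II (1.15 and -0.79) and for Reg lectins and antimicrobial proteins (-1.33 and 0.88). Retnlb, a goblet cell peptide against bacteria, had 28.8 FPKM in VEMD4 and 1.78 in VEMD6, next to 0.41 (WT), 0.09 (VEMD2), 3.10 (VEMD3) and 52.8 (VEMD8), so that its ratio was -3.42 in one pair and 3.71 in the other. No test of these differences between pairs was possible with 1 library each.

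**Figure D5:**
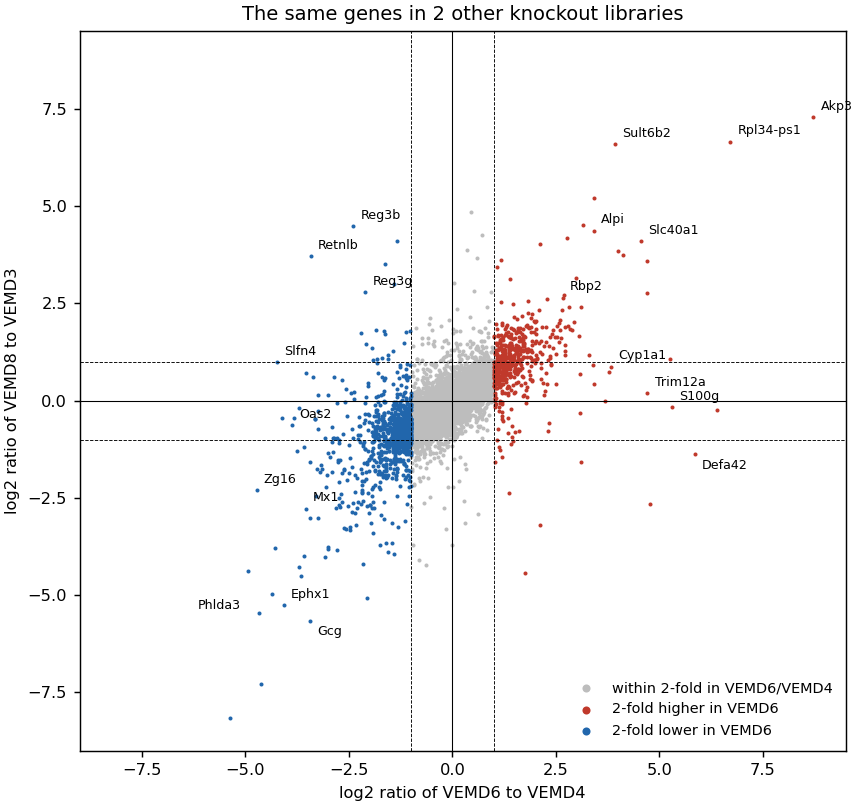
Log2 ratio of VEMD6 to VEMD4 (horizontal axis) and of VEMD8 to VEMD3 (vertical axis) for the 10862 genes, with the 2-fold limits dashed. Alpi, Akp3 and Slc40a1 are high in both, Phlda3, Ephx1 and Gcg low in both, and Reg3b, Reg3g and Retnlb are low in the first and high in the second.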

How the data were processed

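RNA of intestinal crypts was sequenced by BGI-500 protocols, per the labels' protocols. The deposited table holds FPKM per gene for 6 crypt libraries, made by the authors, without counts; the submitters' processing notes name HISAT2, featureCounts and edgeR and the builds GRCm38 and mm10. Depth is unknown: low FPKM values showed no steps from which read numbers could be read. Summed FPKM ran from 481519 (VEMD6) to 585501 (WT) and was 511006 in VEMD4. Of 20718 gene rows, 3760 were empty. Gene IDs were matched to RefSeq GRCm38.p6 (16916 of 16958 genes).

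Ratios were computed in Python 3.11.15 (pandas 2.3.3, numpy 2.4.6) with a pseudocount of 1 FPKM and a mean of at least 1 FPKM over the 6 libraries. The code was checked on simulated data. No test was run, since each group holds 1 library. The 57 gene lists were chosen with earlier results of these data known, and they overlap: 81 of 1135 genes are in more than 1.

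Genes were named by rule: Setdb1, the 20 highest and 20 lowest ratios where the mean reached 5 FPKM and the symbol was no model number, up to 6 members per list in order of the ratio's size, and the 6 largest differences in FPKM each way. Further list members, such as Cdkn1a, Isg15, Ly6a and Ccng1, were chosen after their values were seen. Identities between transcripts come from blastn 2.17.0. Alternatives were 2 other pseudocounts, 3 planned filters and 1 added, 2 rescalings and a 4-fold limit. Stem cell samples and 2 per-sample columns of a repeat element table were not used here. Some items are not reported here.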

Additional observations from a re-analysis of the deposited data

How the results depend on the processing

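Each group holds 1 library and the depth is unknown, so the sizes above carry no estimate of error, and no replicate could be left out. No paired analysis was possible because neither group has a second library. With a pseudocount of 0.1 FPKM 1605 genes were 2-fold lower, and medians were 2.13 for the proximal list and -2.28 for hormones; with 5 FPKM they were 416 genes, -1.20 for goblet cell genes and -0.81 for p53 targets. Rescaling to the median gene gave 858 higher and 524 lower genes and turned 7 medians that were near 0: interferon-gamma GTPases 0.22, necroptosis 0.16, gasdermins 0.24, EGF family 0.0153, lysosome 0.0347, broad epithelium 0.15 and Y-linked genes 0.0104. Rescaling to equal summed FPKM, added after the data were seen, turned the GTPase median to 0.0197. Without a filter the P450 median was 0.59, with a mean of at least 5 FPKM the germline median was -2.14, and at 4-fold 93 genes were higher and 150 lower. With the filter set by the 4 libraries outside the ratio, also added later, 519 genes were higher and 1019 lower. Of 350 single genes run with the pseudocounts and rescalings, the ratio of 100 moved by over 1.5-fold with a pseudocount of 5 FPKM and that of 59 with 0.1 FPKM. None that was 2-fold apart changed direction, but these settings could not have turned one. A pseudocount cannot change the sign of a ratio, and the rescalings shift ratios by less than 2-fold. Of the 350 genes, 289 also had a mean of at least 5 FPKM, a filter that leaves a gene's own ratio as it is.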

Other observations

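Single members of a group of neighbouring TRIM genes had opposite ratios. Trim12a had 0.05 FPKM in VEMD4 and 26.4 in VEMD6, beside 11.2 (WT), 6.25 (VEMD2), 7.39 (VEMD3) and 8.60 (VEMD8), and Trim30d had 1.25 and 22.6, with 10.04 (WT), 5.31 (VEMD2), 4.37 (VEMD3) and 9.14 (VEMD8). VEMD4 was the lowest and VEMD6 the highest library for both. Their relatives went the other way: Trim12c had 21.8 FPKM in VEMD4 and 9.69 in VEMD6, and Trim30a had 28.3 and 4.05. The transcripts of Trim12a and Trim12c are 96.5% identical over 980 bases, so the values of each alone are uncertain. The same holds for Trim30a and Trim30d, whose sum had a ratio of -0.14. Nearby, Trim34a was within 2-fold (5.61 and 6.82 FPKM), and Trim5 was higher in VEMD6 at low levels (0.74 and 2.85). Gvin1, a very large interferon-inducible GTPase, had 0.80 FPKM in VEMD4 and 12.2 in VEMD6, against 70.6 (WT), 30.99 (VEMD2), 1.33 (VEMD3) and 7.22 (VEMD8). These genes were picked out after their values were seen.

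Among the 10862 genes, VEMD4 lay 2-fold above each of the other 5 libraries for 73, and VEMD6 did so for 53. Slfn4 and Khdc1a are given as examples from VEMD4 whose mean reached 5 FPKM. Slfn4, a schlafen gene of myeloid cells and interferon responses, had 198 FPKM in VEMD4 and 9.48 in VEMD6. Its other levels were 2.25 (WT), 7.65 (VEMD2), 13.4 (VEMD3) and 27.8 (VEMD8). Khdc1a, an oocyte gene, had 69.6 FPKM in VEMD4 and 12.5 in VEMD6, with 0.16 in WT. Khdc1a is one of 7 tested germline genes, of which 2 were 2-fold lower in VEMD6 and 0 higher (2 lower and 0 higher after rescaling). Of all genes, 9.62% were 2-fold lower, and 4.82% after rescaling. The other lower member was Khdc1c, a neighbour of Khdc1a on chromosome 1, at 15.5 and 2.74 FPKM. The remaining 5 members lay within 2-fold. Tex19.1, another germline gene, had 15.99 FPKM in VEMD4 and 13.1 in VEMD6, with 4.54 (VEMD3) and 19.9 (VEMD8) and a WT value listed at 0, and so did not differ by 2-fold between VEMD4 and VEMD6. Sult6b2, a sulfotransferase, had 10.3 FPKM in VEMD4 and 171 in VEMD6, with 1.61 (WT) and 393 (VEMD8).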
